A study of Mus musculus with 16 samples.

Results

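The 31 genes described here are markers of the 2 epithelia that line the brain ventricles, 25 of choroid plexus epithelium and 6 of ciliated ependyma, out of 39179 genes counted in each of 16 libraries. They were taken by name, all 31 were present, and all 31 were among the 18074 genes with enough counts to be tested. Total RNA came from adult mice of strain B6.129S6.SvEvTac that the series title calls TERT-AD. The 4 groups were hippocampal neurons of mice given tamoxifen, hippocampal neurons of control mice, cortical neurons of mice given tamoxifen and cortical neurons of control mice, with 4 libraries each. Mice received either tamoxifen or its vehicle, and the design text describes the tested neurons as Tert-activated in vivo. The transgene, its promoter, the tamoxifen dose and timing, the exact age and the method of neuron isolation are not stated in the sources used.

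The choroid plexus is a folded epithelium inside the ventricles that makes most of the cerebrospinal fluid by moving ions and water, and it secretes carrier proteins and growth factors into that fluid. Transthyretin, encoded by Ttr, is its most familiar product and carries thyroid hormone. Ependymal cells line the rest of the ventricle wall, and their motile cilia, whose genes are switched on by the transcription factor FOXJ1, move the fluid along. Neither epithelium is part of the cortical or hippocampal neuron population, but both line the ventricles beside these tissues in the intact brain.

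Libraries 1 and 2, and libraries 3 and 4, of each group were far closer to each other than to the remaining libraries of their group, so each pair was added and is called sample A (libraries 1 and 2) or sample B (libraries 3 and 4). Variance over the Poisson expectation for the most highly counted genes was 3.12 to 6.498 in the 8 neighbouring pairs, somewhat above sampling noise, against 13.6 to 748 in the 16 other pairs of the same groups. Which of them came from the same mouse is not labelled. A p-value over 2 samples per group therefore reflects the spread among those samples, which may be technical. Counts in genes ranged from 83527470 to 108293362 per sample, and values below are gene counts scaled to these totals (CPM). Markers of neurons, oligodendrocytes, astrocytes, microglia and endothelium were present in every sample: the summed CPM of 9 excitatory neuron markers ran from 5273 to 9568 and that of 10 oligodendrocyte markers from 24320 to 73015. Sample B of the cortical tamoxifen group stood apart, with the highest excitatory neuron sum and the lowest oligodendrocyte sum. Tert, the gene the study set out to activate, had 1.04 and 2.16 CPM in hippocampal tamoxifen samples A and B, against 1.47 and 3.89 CPM in hippocampal controls A and B. In cortex Tert had 1.04 and 2.34 CPM in tamoxifen samples A and B, against 0.473 and 1.11 CPM in controls A and B. The groups overlapped in both regions, and Tert rested on 15 to 230 counts per library.

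Promoter sequence is shown for 4 members that behaved differently in the results below. Kcne2 and Tmem72 had the smallest spread of their ratio to Ttr, although few counts support it where Ttr is lowest. Ccdc153 and Tmem212 were highest in cortical tamoxifen sample B, where Ttr is lowest. They were lowest in cortical control sample B, where Ttr was nearly as low. Each window runs from 250 bases before to 50 bases after the annotated start (RefSeq, GRCm38.p6), written along the gene's strand at chr16:92292139-92292438 (plus strand) for Kcne2, chr6:116716709-116717008 (minus strand) for Tmem72, chr9:44240427-44240726 (plus strand) for Ccdc153 and chr3:27896319-27896618 (minus strand) for Tmem212. Capitals mark GTTNCC on either strand, part of the motif bound by RFX transcription factors, which act with FOXJ1 on ciliary genes.
Kcne2: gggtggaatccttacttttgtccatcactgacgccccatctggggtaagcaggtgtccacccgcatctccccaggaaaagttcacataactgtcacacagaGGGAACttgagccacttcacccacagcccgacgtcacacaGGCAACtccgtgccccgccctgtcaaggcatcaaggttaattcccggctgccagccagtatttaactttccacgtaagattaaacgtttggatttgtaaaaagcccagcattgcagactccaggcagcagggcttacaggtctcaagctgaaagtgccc
Tmem72: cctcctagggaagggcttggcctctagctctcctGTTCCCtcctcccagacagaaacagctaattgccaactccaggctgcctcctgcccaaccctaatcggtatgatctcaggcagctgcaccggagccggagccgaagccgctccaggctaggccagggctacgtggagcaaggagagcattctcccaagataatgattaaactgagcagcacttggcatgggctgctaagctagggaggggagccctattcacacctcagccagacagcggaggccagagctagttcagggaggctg
Ccdc153: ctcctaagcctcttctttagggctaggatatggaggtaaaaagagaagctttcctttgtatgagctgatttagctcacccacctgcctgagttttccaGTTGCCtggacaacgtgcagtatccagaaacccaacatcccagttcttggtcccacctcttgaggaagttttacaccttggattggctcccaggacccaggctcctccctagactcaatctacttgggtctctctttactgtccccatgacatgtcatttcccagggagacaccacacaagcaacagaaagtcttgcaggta
Tmem212: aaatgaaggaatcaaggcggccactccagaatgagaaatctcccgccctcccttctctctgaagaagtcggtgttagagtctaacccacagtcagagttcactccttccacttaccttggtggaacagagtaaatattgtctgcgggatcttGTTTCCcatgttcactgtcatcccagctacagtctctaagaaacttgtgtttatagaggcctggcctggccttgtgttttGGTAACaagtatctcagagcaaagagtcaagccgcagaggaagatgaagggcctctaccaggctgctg
RefSeq promoters were matched for 21 of the 31 members, 32 windows in all. GTTNCC occurred in 17 of these 32 windows (53.12%), covering 14 members, against 45.34% of all 32851 windows. TAATCC, the core read by OTX2, occurred on either strand in 3 of the 32 windows (9.38%), those of Ace, Igf2 and Otx2, against 7.06% of all windows. Both shares lay near those of all promoters, and a match is a description of letters and not of a bound site.

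Among the secreted products, Ttr spanned 5021-fold over the 8 samples, and samples of 1 group differed in it by up to 1479-fold. Ttr had 37.8 and 7488 CPM in hippocampal tamoxifen samples A and B, against 15953 and 7345 CPM in hippocampal controls A and B. In cortex it had 4701 and 3.18 CPM in tamoxifen samples A and B, against 876 and 3.88 CPM in controls A and B. Ttr was therefore high in 1 of 2 hippocampal tamoxifen samples, in both hippocampal controls and in sample A of both cortical groups, and the tamoxifen and control groups overlapped in both regions. In the highest sample Ttr took 1.60% of all gene counts. Neighbouring libraries of each sample differed in Ttr by only 1.00- to 1.15-fold. Because these are bulk samples, fewer epithelial cells and less RNA per cell cannot be told apart.

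Enpp2 encodes autotaxin, an enzyme that makes lysophosphatidic acid and is also expressed outside the choroid plexus. It had 96.9 and 2785 CPM in hippocampal tamoxifen samples A and B, against 5675 and 3404 CPM in hippocampal controls. In cortex Enpp2 had 1588 and 88.4 CPM in tamoxifen samples A and B, against 324 and 60.1 CPM in controls. The order of the samples was nearly that of Ttr, but the lowest sample still held 60.1 CPM. Igf2, an insulin-like growth factor, had 20.6 and 305 CPM in hippocampal tamoxifen samples, against 520 and 369 CPM in hippocampal controls. In cortex Igf2 had 190 and 13.6 CPM in tamoxifen samples, against 49.6 and 14.7 CPM in controls. Igfbp2, which binds insulin-like growth factors, had the smallest span among the choroid members, 11.1-fold. Igfbp2 had 42.8 and 203 CPM in hippocampal tamoxifen samples, against 409 and 215 CPM in hippocampal controls. In cortex Igfbp2 had 136 and 37.0 CPM in tamoxifen samples, against 64.5 and 40.8 CPM in controls. Enpp2, Igf2 and Igfbp2 were lower in both hippocampal tamoxifen samples than in either hippocampal control, as 23.6% of all genes were, and their cortical groups overlapped.

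Kl encodes klotho, a co-receptor for a phosphate-regulating fibroblast growth factor that is also shed into the fluid. It had 5.09 and 313 CPM in hippocampal tamoxifen samples, against 615 and 371 CPM in hippocampal controls, and in cortex 157 and 0.902 CPM in tamoxifen samples, against 30.4 and 0.355 CPM in controls. Sostdc1, an antagonist of BMP and Wnt signals, ran from 0.0501 to 76.0 CPM over the 8 samples. The plasma-type proteins F5 (coagulation factor V) and Lbp (lipopolysaccharide-binding protein) ran from 0.756 to 220 and from 0.189 to 93.0 CPM. All of these peaked in hippocampal control sample A and had their lowest values in sample B of one of the cortical groups.

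Otx2 is the homeodomain factor that specifies and maintains choroid plexus epithelium. It had 0.409 and 29.9 CPM in hippocampal tamoxifen samples A and B, against 61.8 and 31.8 CPM in hippocampal controls. In cortex Otx2 had 15.9 and 0.0301 CPM in tamoxifen samples, against 3.24 and 0.0709 CPM in controls, and the lowest of these values rested on 3 counts. The samples stood in the same order for Otx2 as for Ttr, except that hippocampal tamoxifen sample B and hippocampal control sample B changed places.

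**Figure D1:**
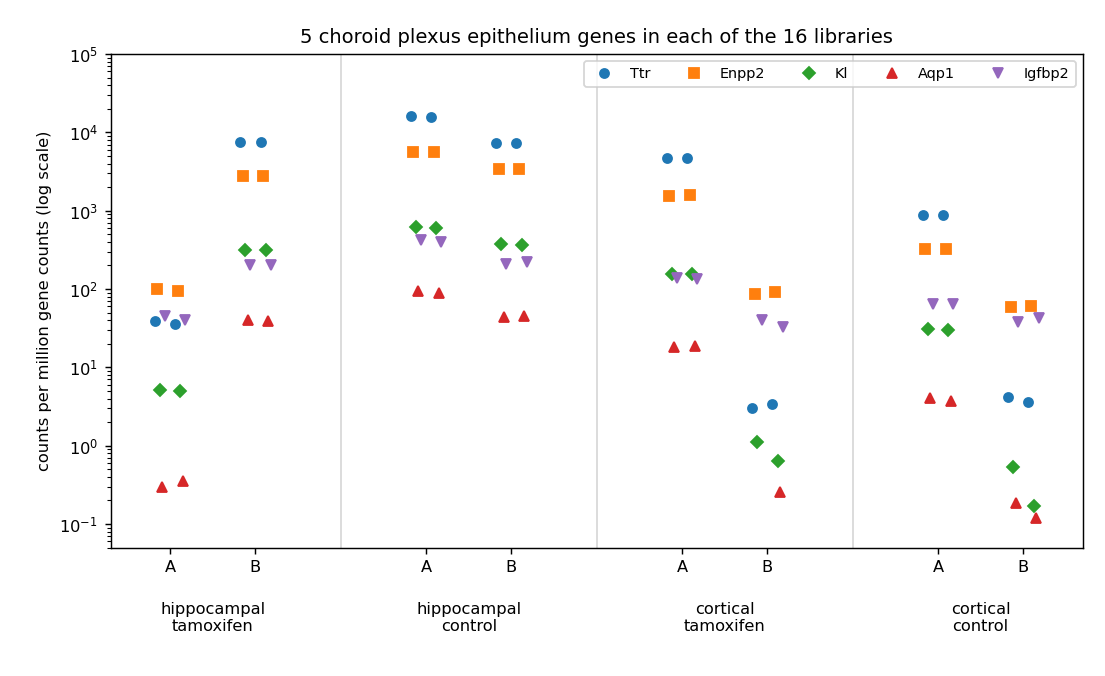
Level of 5 choroid plexus genes (CPM, log axis) in each of the 16 libraries, with the 2 libraries of a sample side by side above its letter. Neighbouring libraries lie close together while samples A and B of the hippocampal tamoxifen, cortical tamoxifen and cortical control groups lie far apart. Aqp1 in 1 library of cortical tamoxifen sample B, at 0.035 CPM, lies below the axis and so has no point.

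Genes of fluid secretion and of the tight epithelial barrier followed. Aqp1, the water channel of the apical membrane, had 0.323 and 39.9 CPM in hippocampal tamoxifen samples, against 92.1 and 44.9 CPM in hippocampal controls. In cortex Aqp1 had 18.6 and 0.130 CPM in tamoxifen samples, against 3.85 and 0.154 CPM in controls. Kcne2, a potassium channel subunit, had 0.114 and 39.96 CPM in hippocampal tamoxifen samples, against 81.0 and 41.5 CPM in hippocampal controls. In cortex it had 23.2 and 0.0200 CPM in tamoxifen samples, against 4.06 and 0.0236 CPM in controls, and the B samples held 2 counts each. The bicarbonate transporter Slc4a5 held 1 count in cortical tamoxifen sample B and reached 130 CPM in hippocampal control sample A. Tmem72, a membrane protein, ran from 0.0200 to 87.8 CPM, and the barrier protein Cldn2 from 0.0118 to 79.4 CPM. The chloride channel family member Clic6 ran from 1.13 to 302 CPM, the sulfate transporter Slc13a4 from 0.311 to 107 CPM and the cation channel Trpv4 from 0.732 to 69.6 CPM. Every one of these transport genes was highest in hippocampal control sample A.

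The receptors and enzymes behaved alike. Folr1, the folate receptor through which folate enters the fluid, had 0.399 and 60.2 CPM in hippocampal tamoxifen samples, against 120 and 61.2 CPM in hippocampal controls. In cortex Folr1 had 35.5 and 0.140 CPM in tamoxifen samples, against 6.88 and 0.118 CPM in controls. Prlr, the prolactin receptor, ran from 0.213 to 242 CPM over the 8 samples, and Ace, the angiotensin-converting enzyme, from 6.76 to 365 CPM. Steap1, of a metalloreductase family, ran from 0.0473 to 26.3 CPM, and Calml4, a calmodulin-like protein, reached 30.6 CPM and had 0 counts in cortical control sample B. Among the collagen genes, Col8a1 and Col8a2 encode the chains of collagen VIII and ran from 0.756 to 88.8 and from 0.0591 to 88.8 CPM. Col9a3, a chain of collagen IX, ran from 6.05 to 177 CPM.

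All 25 choroid members were highest in hippocampal control sample A. The share of all genes highest in that sample is not given here, for this count or for the like counts of other lists below. With any sample below 3 counts set to that floor, the median fold between highest and lowest sample was 707 for the choroid members and 18.6 for the ependymal members, against 2.19 over all 18074 genes. Summed over the 25 choroid members, hippocampal tamoxifen samples A and B held 241 and 12448 CPM, against 25709 and 13123 CPM in hippocampal controls. The cortical sums were 7506 and 164 CPM in tamoxifen samples, against 1485 and 139 CPM in controls.

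**Figure D2:**
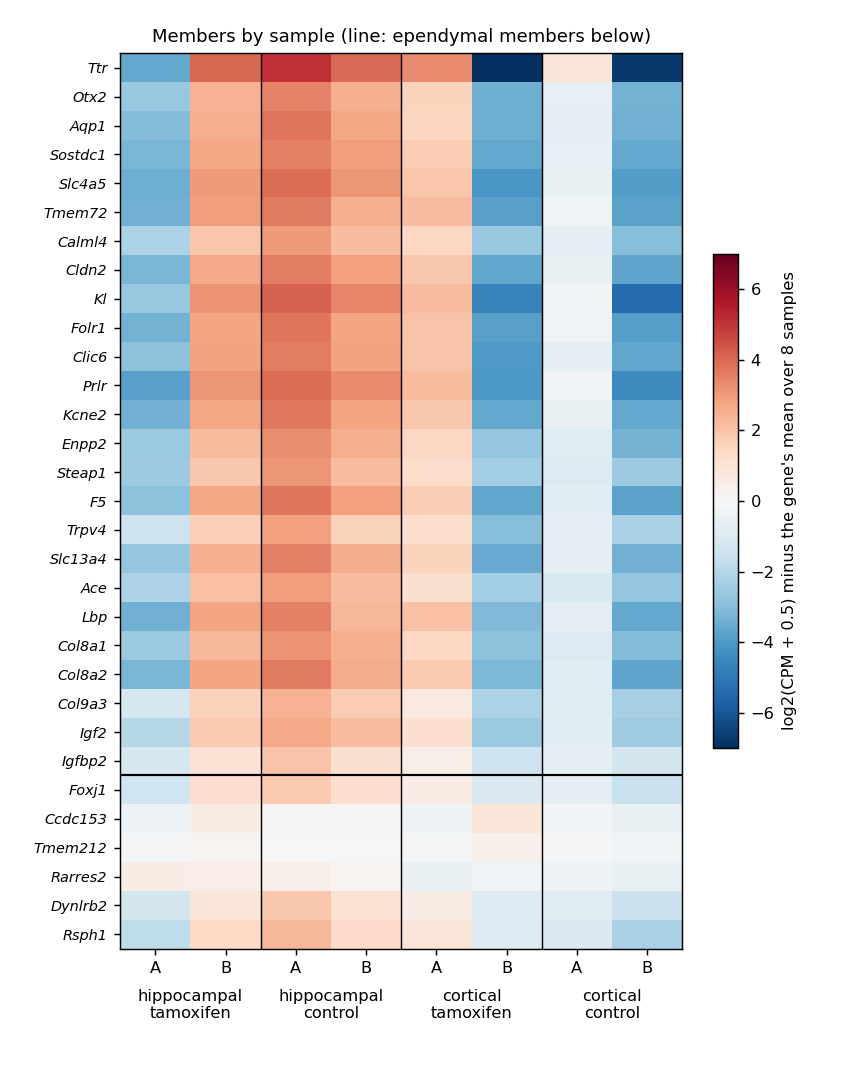
Each of the 31 members in the 8 samples, as log2(CPM + 0.5) minus the gene's mean over the samples (colour; the 0.5 keeps samples at 0 on the scale). The 25 choroid members above the line share 1 pattern with hippocampal control sample A highest, and 3 of the 6 ependymal members below it do not.

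Ependymal genes were less uniform. Foxj1, the regulator of motile cilia, had 3.59 and 23.6 CPM in hippocampal tamoxifen samples, against 38.5 and 23.7 CPM in hippocampal controls. In cortex Foxj1 had 14.9 and 4.82 CPM in tamoxifen samples, against 6.32 and 3.21 CPM in controls. Rsph1, a radial spoke protein of the ciliary axoneme, had 0.409 and 7.50 CPM in hippocampal tamoxifen samples, against 15.0 and 7.30 CPM in hippocampal controls. In cortex Rsph1 had 5.24 and 1.13 CPM in tamoxifen samples, against 1.05 and 0.142 CPM in controls, so that both cortical tamoxifen samples lay above both cortical controls, as 20.8% of all genes did. With TMM scaling the Rsph1 groups overlapped. Dynlrb2, a dynein light chain, had 0.143 and 2.33 CPM in hippocampal tamoxifen samples, against 5.26 and 2.78 CPM in hippocampal controls. In cortex it had 1.80 and 0.331 CPM in tamoxifen samples, against 0.411 and 0.0355 CPM in controls. These 3 genes were highest in hippocampal control sample A, as the choroid members were.

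Ccdc153 and Tmem212, which mark ciliated ependyma, and Rarres2, which encodes the secreted attractant chemerin, did not share that pattern. Ccdc153 had 0.0856 and 0.637 CPM in hippocampal tamoxifen samples, against 0.315 and 0.314 CPM in hippocampal controls, and in cortex 0.108 and 0.892 CPM in tamoxifen samples, against 0.175 and 0.0355 CPM in controls. Tmem212 had 0.0095 and 0.139 CPM in hippocampal tamoxifen samples, against 0.0573 and 0.0554 CPM in hippocampal controls, and in cortex 0.0120 and 0.231 CPM in tamoxifen samples, against 0.0308 and 0 CPM in controls. Both peaked in cortical tamoxifen sample B, where they held 89 and 23 counts and where Ttr was at its lowest. In cortical control sample B, where Ttr had 3.88 CPM, both were at their lowest, with 3 and 0 counts. These 2 markers were at 0 to 0.892 CPM in every sample and rest on few counts, whereas Foxj1 had 272 to 4028 counts per sample. Rarres2 had 4.66 and 4.44 CPM in hippocampal tamoxifen samples, against 4.42 and 3.51 CPM in hippocampal controls, and in cortex 2.13 and 2.52 CPM in tamoxifen samples, against 2.39 and 2.19 CPM in controls. It was higher in all hippocampal than in all cortical samples and spanned 2.19-fold, where 29.4% of all genes were higher without overlap in hippocampus between tamoxifen samples and 62.1% between controls. Rarres2 overlaps Lrrc61 on the opposite strand, which had 10.3 to 15.997 CPM, and the sources used do not state the strand setting of the counting, so its counts are uncertain.

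**Figure D3:**
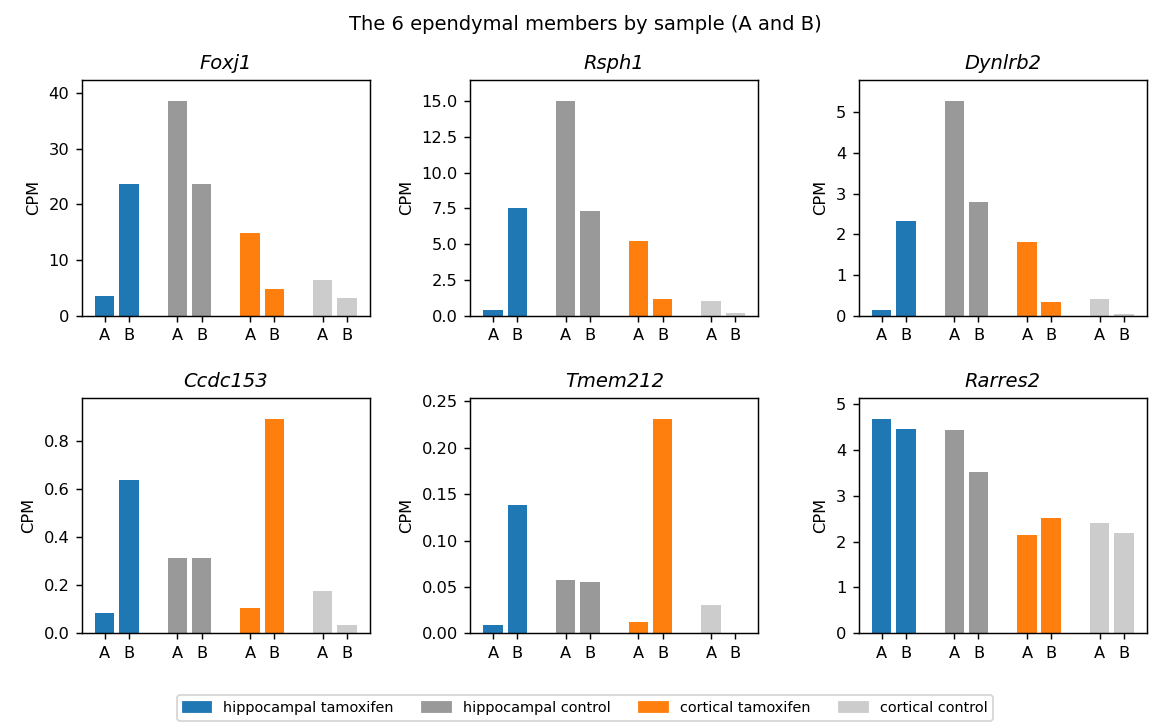
CPM of the 6 ependymal members in samples A and B of each group (bars from 0; each panel has its own scale). Foxj1, Rsph1 and Dynlrb2 peak in hippocampal control sample A, Ccdc153 and Tmem212 in cortical tamoxifen sample B, and Rarres2 separates hippocampal from cortical samples.

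Samples of 1 group differed in these genes far more than most genes did. The higher sample of each group was read from the values, so the counts below describe these samples and are not tests. In hippocampal tamoxifen samples, B exceeded A at least 5-fold in 28 of 31 members (median 59.9-fold), against 2.43% of all genes. In hippocampal controls A exceeded B at least 5-fold in 0 of 31 members (median 1.80-fold), against 0.476% of all genes. Cortical tamoxifen sample A exceeded B at least 5-fold in 25 members (median 78.7-fold), against 1.69% of all genes. Cortical control sample A exceeded B at least 5-fold in 22 members (median 14.02-fold), against 0.93% of all genes. Ttr itself differed 198-fold, 2.17-fold, 1479-fold and 226-fold in these 4 pairs. The 3 exceptions in hippocampal tamoxifen samples were Igfbp2, Tmem212 and Rarres2, with B over A of 4.74, 4.85 and 0.953.

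Other genes of both epithelia varied in the same samples. Their lists hold no member, but were chosen with earlier results of these data known. Of 28 further choroid genes, 21 exceeded 5-fold in hippocampal tamoxifen B over A, 0 in hippocampal control A over B, 19 in cortical tamoxifen A over B and 13 in cortical control A over B, and 26 were highest in hippocampal control sample A. Those of highest mean CPM, not scaled for length, were Trpm3, Sulf1, Car12, Cab39l and Slc31a1. Car12, a carbonic anhydrase, had 3.04 and 93.4 CPM in hippocampal tamoxifen samples, against 197 and 100.003 CPM in hippocampal controls, and in cortex 57.9 and 3.23 CPM in tamoxifen samples, against 10.5 and 0.910 CPM in controls. Of 32 further ciliary genes, 19, 0, 12 and 4 exceeded 5-fold in the same 4 pairs, and 25 were highest in hippocampal control sample A. The exceptions included Drc1, Mcidas and Sntn, highest in cortical tamoxifen sample B as Ccdc153 and Tmem212 were. Mcidas and Sntn rest on few counts: Mcidas ran from 0.0236 to 0.160 CPM over the 8 samples and Sntn from 0 to 0.0601 CPM. Mcidas was nearly as high in cortical control sample A, at 0.144 CPM. Drc1, of the dynein regulatory complex, had 2.92 and 3.62 CPM in hippocampal tamoxifen samples, against 5.83 and 3.88 CPM in hippocampal controls, and in cortex 4.84 and 7.64 CPM in tamoxifen samples, against 5.17 and 3.85 CPM in controls.

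The summed markers of neighbouring tissues spanned a smaller range. The summed level of 13 meningeal fibroblast genes was 52.9 and 58.4 CPM in hippocampal tamoxifen samples, against 67.8 and 57.6 CPM in hippocampal controls, and in cortex 30.7 and 29.7 CPM in tamoxifen samples, against 28.1 and 27.1 CPM in controls. Endothelial genes, 11 in all, summed to 802 and 720 CPM in hippocampal tamoxifen samples, against 692 and 863 CPM in hippocampal controls, and in cortex to 680 and 423 CPM in tamoxifen samples, against 714 and 637 CPM in controls. Highest over lowest sample was 2.50-fold for the meningeal sum and 2.04-fold for the endothelial sum, against 185-fold for the choroid members. Without Ttr the choroid sum ran from 135 CPM in cortical control sample B to 9756 CPM in hippocampal control sample A. Single meningeal genes spanned more: 8 of the 13 were highest in hippocampal control sample A, and Ogn ran from 1.12 to 11.3 CPM. Ogn, a small proteoglycan, had 3.05 and 6.49 CPM in hippocampal tamoxifen samples, against 11.3 and 8.06 CPM in hippocampal controls, and in cortex 3.57 and 1.19 CPM in tamoxifen samples, against 1.42 and 1.12 CPM in controls. The part of meningeal tissue in the member levels was not tested.

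Choroid members kept their ratio to Ttr within 2-fold between the hippocampal controls, and fewer did so between the samples of the other groups. Folr1 had 10.6 and 8.03 counts per 1000 Ttr counts in hippocampal tamoxifen samples A and B, against 7.54 and 8.33 in hippocampal controls. In cortex Folr1 had 7.55 and 44.2 counts per 1000 Ttr counts in the tamoxifen pair, against 7.86 and 30.5 in the control pair. The cortical B ratios rested on 14 Folr1 counts in the tamoxifen sample and 10 in the control sample. The ratio was thus within 7.54 to 10.6 in 6 samples and higher in the cortical B samples, where Ttr was lowest. Tmem72 had 4.79 to 7.15 counts per 1000 Ttr counts and Kcne2 3.02 to 6.31 over all 8 samples. In the cortical B samples both genes held 2 counts, so that the exact 95% interval was 0.76 to 22.8 per 1000 in the tamoxifen sample and 0.74 to 22.0 in the control sample, for counting error only. Between samples A and B the ratio to Ttr changed by at most 2-fold in 11 of 24 choroid members in hippocampal tamoxifen, 24 of 24 in hippocampal control, 2 of 24 in cortical tamoxifen and 3 of 24 in cortical control samples.

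Igfbp2 and Enpp2, both abundant, did not keep one ratio to Ttr over the 8 samples. Igfbp2 had 1133 and 27.1 counts per 1000 Ttr counts in hippocampal tamoxifen samples A and B, against 25.6 and 29.3 in hippocampal controls. In cortex the same ratio was 28.9 and 11631 in tamoxifen samples, against 73.6 and 10527 in controls. Enpp2 had 2567 and 372 counts per 1000 Ttr counts in hippocampal tamoxifen samples, against 356 and 463 in hippocampal controls, and in cortex 338 and 27811 in tamoxifen samples, against 370 and 15503 in controls. Both ratios were highest where Ttr was lowest. Rarres2 ranged from 0.277 to 792 on this scale.

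Levels of different genes can be compared only per length, for which the deposited RPKM values were used. In hippocampal control sample A Ttr had 8272 RPKM, Enpp2 1037, Igfbp2 140, Kl 75.9 and Igf2 57.3. In hippocampal tamoxifen sample A the leading members were Ttr at 19.2 RPKM, Enpp2 at 17.4 and Igfbp2 at 14.4. In cortical tamoxifen sample B they were Enpp2 at 16.1 RPKM, Igfbp2 at 12.4 and Rarres2 at 2.22, ahead of Ttr at 1.65. Ttr led the members in 6 of the 8 samples, and either Enpp2 or Igfbp2 led them in the cortical B samples.

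**Figure D4:**
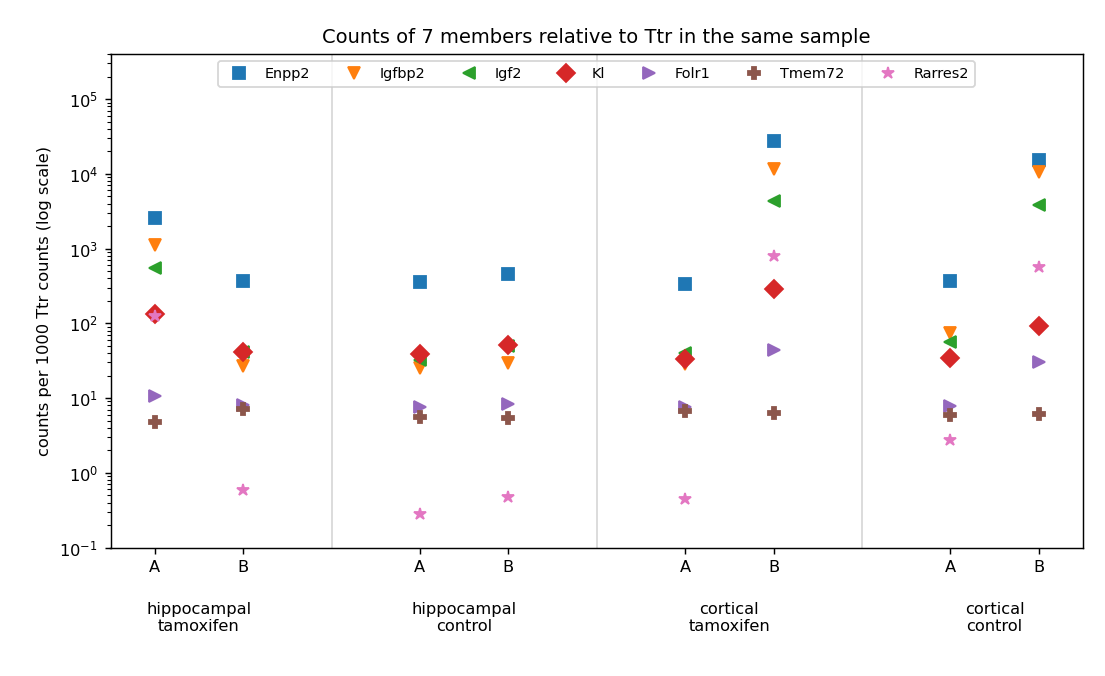
Counts of 7 members per 1000 Ttr counts of the same sample (log axis), by sample. Tmem72 stays between 4.79 and 7.15, while Enpp2, Igfbp2, Igf2 and Rarres2 reach their highest ratios in the cortical B samples.

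Genes outside the 31 that resembled Ttr most were sought among 12639 genes with a mean of at least 1 CPM, leaving out predicted genes, Rik entries, pseudogenes and mitochondrial genes, by the root mean square difference of log2(CPM + 0.5) centred on each gene's mean over the 8 samples. The nearest 10 were Mfrp (1.72), Ccdc135 (2.16), Kcnj13 (2.21), Abca4 (2.30), Car12 (2.40), Wdr86 (2.41), Krt18 (2.47), A2m (2.57), Epn3 (2.59) and Slc2a12 (2.69). Of the nearest 30 genes so ranked 20 were members. With the entries left out kept in (13618 genes), 18 of the nearest 30 were members and 2 were such entries, of which 1500015O10Rik (1.71), on the list of further choroid genes, was the nearer. Mfrp had 0.580 and 81.5 CPM in hippocampal tamoxifen samples, against 158 and 90.6 CPM in hippocampal controls, and in cortex 43.0 and 0.160 CPM in tamoxifen samples, against 7.20 and 0.201 CPM in controls. Rarres2, last of the members in the ranking, ranked 2728. Ccdc153 and Tmem212 had means under 1 CPM and so had no rank.

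Tamoxifen was compared with control within each region because the design text describes Tert activation, although Tert itself overlapped between tamoxifen and control samples in both regions. In hippocampus no member passed edgeR's quasi-likelihood test with Benjamini-Hochberg adjustment at 0.05 (0 of 31), and 0.0% of all 18074 genes passed. The count at an unadjusted p under 0.05 was 0 of 31 members and 653 of all genes (3.61%), and DESeq2 called 8 genes (0.0443%), none a member. Fitted log2 fold changes were negative in 28 of 31 members, with a median of -1.49 against -0.01 over all genes. Ttr had a log2 fold change of -1.55 (SE 3.49) and Enpp2 of -1.58 (SE 1.96). Igfbp2 had -1.28 (SE 1.00), Foxj1 -1.12 (SE 1.05) and Rarres2 0.23 (SE 0.19). The smallest adjusted p of a member was 1. Both tamoxifen samples lay below both controls in 21 members, against 23.6% of all genes, and above them in 1 member, Rarres2, against 14.6% of all genes. With TMM scaling the lower count was 19 members and 18.9% of all genes. Without hippocampal tamoxifen sample A the median of the members was -0.51, and without sample B it was -6.51. In limma the median was -3.49 with quality weights and -3.515 with neighbouring libraries treated as correlated.

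In cortex the fitted values had the opposite sign, and again no member passed (0 of 31 and 0.0% of all genes). At an unadjusted p under 0.05 there were 0 members and 899 genes (4.97%), and DESeq2 called 8 genes (0.0443%), none a member. Fitted log2 fold changes were positive in 30 of 31 members with a median of 2.41, against 0.04 over all genes. Ttr had a log2 fold change of 2.49 (SE 3.60), Enpp2 of 2.17 (SE 2.00) and Igfbp2 of 0.68 (SE 0.99). Foxj1 had 1.00 (SE 1.06) and Rarres2 -0.17 (SE 0.19), and the smallest adjusted p of a member was 0.830. Both tamoxifen samples lay above both controls in 1 member, Rsph1, against 20.8% of all genes, and below them in 0 members, against 6.29%. With TMM scaling no member lay above, against 16.2% of all genes, and Rarres2 lay below, against 15.0%. Without cortical tamoxifen sample A the sign turned, with 27 of 31 members negative and a median of -2.95. In limma with quality weights the median was 0.84, with 27 members positive and 4 negative. With neighbouring libraries treated as correlated it was 0.38, with 20 members positive and 10 negative.

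The difference of the tamoxifen effects, hippocampus minus cortex, had a median log2 value of -3.86 over the members, against -0.04 over all genes. It passed in 0 of 31 members and 0.0% of all genes, and the smallest adjusted p of a member was 0.912. At an unadjusted p under 0.05 there were 0 members and 981 genes (5.43%), and DESeq2 called 4 genes (0.0221%), none a member. Ttr had -4.04 (SE 5.002) for this difference. Without cortical tamoxifen sample A, 22 of 31 members were positive with a median of 1.54. The opposite signs of the regions are therefore not shown to differ beyond the spread between samples.

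**Figure D5:**
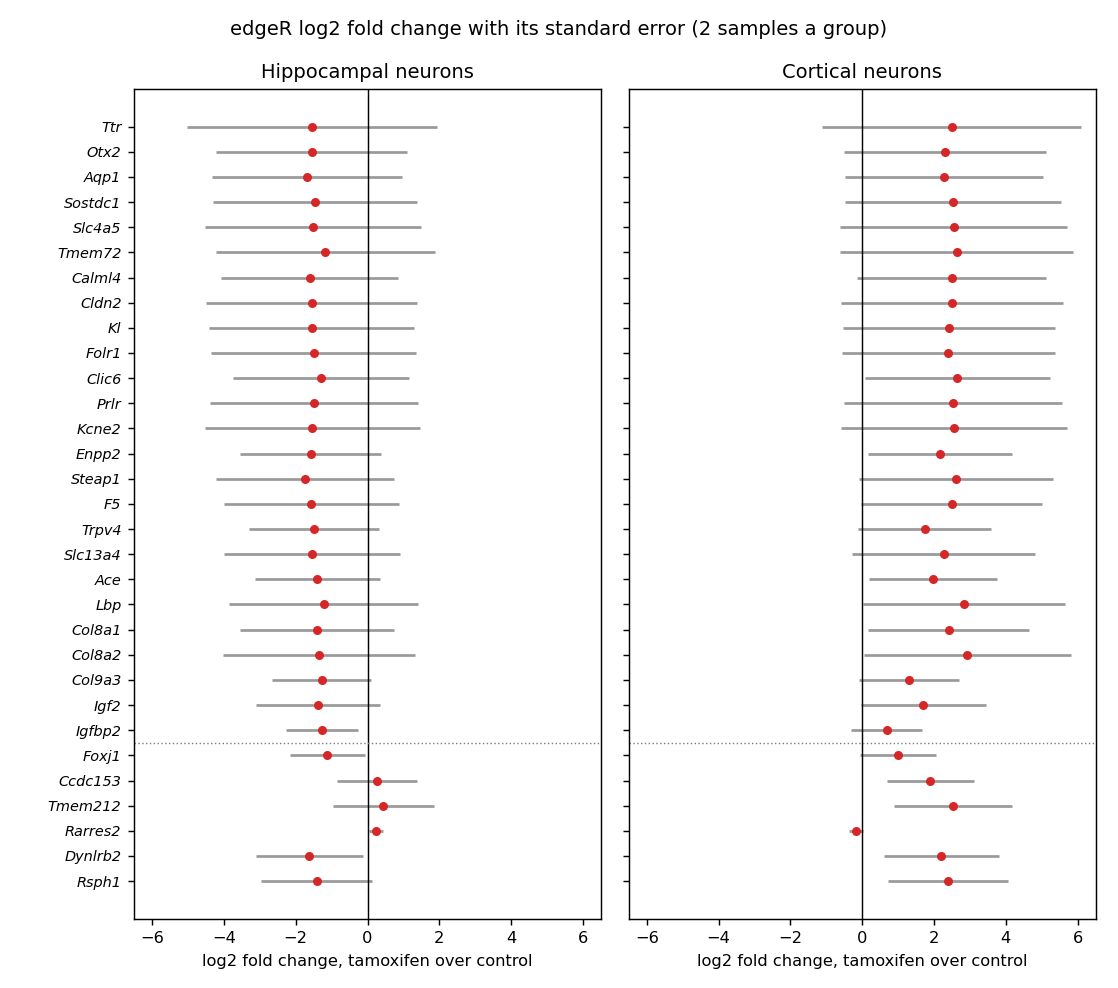
Log2 fold change of tamoxifen over control for the 31 members in hippocampal (left) and cortical (right) neurons, with bars of 1 standard error from the edgeR fit (2 samples a group). Ttr lies at -1.55 and 2.49 with standard errors of 3.49 and 3.60; the dotted line separates choroid from ependymal members.

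Hippocampal and cortical samples were compared within each treatment, in contrasts that share their samples with the tamoxifen contrasts. Between controls, all 31 members had higher values in both hippocampal samples than in either cortical sample, where 62.1% of all genes did so on this scale and 34.6% with TMM scaling. Fitted log2 fold changes were positive in 31 of 31 members, with a median of 4.35 against 0.00 over all genes. No member passed edgeR's test (0 of 31), where 6.19% of all genes did, and the smallest adjusted p of a member was 0.205. Ttr had a log2 fold change of 4.35 (SE 3.91), Enpp2 of 4.19 (SE 2.18), Foxj1 of 2.32 (SE 1.09), Igfbp2 of 2.18 (SE 1.03) and Rarres2 of 0.40 (SE 0.19). DESeq2 called 1 member, Enpp2, at an adjusted p of 0.0371, where it called 17.7% of all genes. Fits of the 16 separate libraries called 13 members, where they called 41.7% of all genes, and limma with neighbouring libraries as correlated called 2, Enpp2 and Col9a3, where it called 20.2%. Without a normalization factor the median of all genes moved to 0.39 in this contrast, 0.12 between tamoxifen samples, 0.25 for tamoxifen in cortex and -0.28 for the difference of the tamoxifen effects. Between controls 1910 genes were called higher and 154 lower in hippocampus, against 489 higher and 629 lower with TMM.

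Between tamoxifen samples the values of the members lay nearer to those of all genes. The median log2 fold change, hippocampus over cortex, was 0.43 against -0.03 over all genes, with 28 of 31 positive, and 0 members passed, where 1.12% of all genes did. Ttr had 0.32 (SE 3.41). Without cortical tamoxifen sample B 28 of 31 members were negative, and without hippocampal tamoxifen sample B 30 of 31 were. Rarres2 had a log2 fold change of 0.81 (SE 0.19) with an adjusted p of 0.0837 in edgeR, and was the 1 member whose groups did not overlap in this contrast, where 29.4% of all genes were higher without overlap. Its adjusted p was 0.00795 in DESeq2 (10.8% of all genes called), 0.000183 in edgeR over 16 separate libraries (32.9%), 0.0339 in limma with correlated libraries (17.1%) and 0.0269 in edgeR without cortical tamoxifen sample A (21.7%). It was 0.286 in limma with quality weights, 0.141 with the sample letter as a block, 0.120 with no normalization factor, and 0.297 and 0.292 without hippocampal tamoxifen sample A and B.

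The library measures that could move with these genes were read beside them. The share of gene counts from the mitochondrial genome was 25.6 and 25.2% in hippocampal tamoxifen samples A and B, against 25.4 and 24.0% in hippocampal controls, and in cortex 29.9 and 20.4% in tamoxifen samples, against 31 and 31.5% in controls. Hippocampal tamoxifen samples A and B thus had mitochondrial shares 25.6 and 25.2% at Ttr levels of 37.8 and 7488 CPM. In cortical tamoxifen samples A and B the oligodendrocyte sum was 67703 and 24320 CPM and the excitatory neuron sum 5966 and 9568 CPM, alongside choroid sums of 7506 and 164 CPM. In cortical controls A and B these sums were 53614 and 53189 CPM for oligodendrocytes and 6659 and 6720 CPM for excitatory neurons, alongside choroid sums of 1485 and 139 CPM. Mbp and Mobp made up most of these oligodendrocyte sums. In cortical tamoxifen samples Mag, Mog, Cldn11 and Opalin were higher in B than in A, and the other listed markers lower. In cortical controls all listed oligodendrocyte markers except Mobp were lower in B than in A, Mag with 86.3 and 62.6 CPM in A and B. The part of these measures in the choroid and ependymal levels was not tested.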

How the data were processed

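The labels' protocols name Trizol extraction and a Bioanalyser check of the RNA. The submitters' processing notes name STAR, HTSeq and the mm10 build; versions, annotation release and strand setting are not stated in the sources used. Per the file headers, the deposited value of each gene is a raw count of reads. The deposited RPKM beside it was recomputed from count, exon length and the library total with unassigned reads (99.997% of values matched within 1 part in 1000000) and entered no test. Reads not uniquely placed (27.53 to 35.43% of counts), outside genes (3.64 to 7.93%) or ambiguous (1.38 to 1.86%) stayed out of library sizes, which held 33236178 to 57195203 gene counts per library. Intervals and floors cover counting error only.

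Counts of libraries 1 and 2, and 3 and 4, were added. Genes passing filterByExpr were fitted with TMM factors and a mean per group in edgeR 4.0.16 (R 4.3.3, robust quasi-likelihood), with p-values adjusted by Benjamini-Hochberg over all genes tested at 0.05. The standard error is the log2 fold change over the square root of F. DESeq2 1.42.0, limma 3.58.1, other scalings, filters, blocks and left-out libraries were alternatives. Members and lists were chosen with earlier results of these data known. The 10 genes most like Ttr left out predicted, mitochondrial and pseudogene entries, and list examples were the 5 of highest mean CPM. Of the further ciliary genes 6 had older symbols and were matched by gene ID, and 1 further choroid entry of 29 had no row. The fit was tested on simulated counts.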

Additional observations from a re-analysis of the deposited data

How the results depend on the processing

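No member passed edgeR's test in either tamoxifen contrast or in their difference under any alternative run. Genes called beyond the 0 found by edgeR were 8 with DESeq2, 318 with 16 separate libraries and 3 with correlated libraries in hippocampus, and 1 with no count filter, 8, 562 and 15 in cortex. For the difference of the tamoxifen effects they were 4, 867 and 112. If neighbouring libraries repeat 1 sample, p-values from 16 libraries are too small. In the tamoxifen region contrast (202 genes) the counts were 26 with no normalization factor, 536 with no count filter, 1946 with DESeq2, 2 with quality weights, 5510 with 16 libraries and 2861 with correlated libraries, and DESeq2, 16 libraries and correlated libraries each called 1 member, Rarres2. In the control region contrast (1118 genes) they were 2064, 3207 with DESeq2, 4743 with quality weights, 6982 and 3380, with 1, 13 and 2 members called by DESeq2, 16 libraries and correlated libraries. The cause of these differences was not tested.

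With the sample letter as a replicate block the counts were 0 genes in the tamoxifen region contrast and 72 in the control region contrast. The letters are not stated to pair samples, and correlations of A minus B differences between groups ran from -0.405 to 0.283. With the hippocampal tamoxifen letters crossed, a pairing chosen after seeing the data, the counts were 121 and 2036 genes, with 6 members called between controls. The block changed no other call.

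Leaving out 1 library or sample gave 0 to 2014 genes in cortex, the highest without cortical tamoxifen sample A. It gave 0 to 4092 genes in the tamoxifen region contrast, with 0 to 1 members (Rarres2 without cortical tamoxifen sample A), and 0 to 3915 in the control region contrast. A lone sample is then assumed to vary like the other groups. Log2 fold changes in cortex then ran from -7.51 to 9.27 for Ttr, -1.52 to 3.80 for Enpp2, -0.93 to 1.42 for Igfbp2 and -0.40 to 1.69 for Foxj1, negative only without cortical tamoxifen sample A. The difference of Ttr ran from -10.82 to 5.96. In the tamoxifen region contrast they ran from -6.34 to 10.31 for Ttr, -3.47 to 4.13 for Enpp2, -1.30 to 1.83 for Igfbp2 and -1.73 to 1.59 for Foxj1, negative without sample B of either group. The Rarres2 value in cortex was 0.02 with no normalization factor. Depth limits Tmem212 and the cortical B values of Otx2, Slc4a5, Tmem72, Kcne2, Cldn2, Calml4, Sostdc1, Steap1 and Aqp1. These cortical B values rest on 0 to 13 counts. In cortical control sample B it also limits Ccdc153 and Dynlrb2 (3 counts), Col8a2 (5 counts), Folr1 (10 counts) and Rsph1 (12 counts).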
